A study of Mus musculus with 4 samples.

Results

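The genes described here are 9 that thymocytes induce when their T cell receptor is engaged during selection: Egr1, Egr2, Egr3, Nr4a1, Nr4a3, Id2, Id3, Nfatc1 and Cd69. They were found by their symbols, as the probe sets that the platform annotation gives to 1 of these genes alone, which gave 19 of 45037 probe sets and 9 of 18193 named genes. The RNA was that of all thymocytes, unsorted, from mice aged 7 weeks. The compared groups were 2 mice with a hypomorphic allele of Atg16l1, which leaves reduced function of a gene needed to form autophagosomes, and 2 control mice, called wild-type in the sample descriptions. Each mouse gave 1 Affymetrix array. The animals are described as independent of each other, with 1 male and 1 female in each group, but no label ties an array to a sex, and the strain is not given in the sources used here.

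A developing thymocyte that carries both CD4 and CD8 survives only if its T cell receptor binds self-peptide on MHC with a suitable strength. The signal runs through the ERK kinases, which switch on the Egr zinc finger transcription factors, and through calcium and calcineurin, which move NFAT proteins to the nucleus. Egr proteins raise Id3, and Id proteins hold back the E proteins that maintain the double-positive state. The orphan nuclear receptors of the Nr4a family follow receptor signal strength and are linked to the death of strongly self-reactive cells, and CD69 appears on the surface of cells that have just been signalled and holds them in the thymus.

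The start regions of Nr4a1, Nr4a3 and Egr2 are shown because the first pair belongs to the same family but differed in how far its values spread between animals, and because Egr2 had the highest change among the members. Each is the 250 bases before an annotated RefSeq start in GRCm38.p6, on the plus strand, and the capitals mark TGACG on either strand (so also CGTCA), the core of the cAMP response element, and the CArG box, the core of the serum response element.
Nr4a1, chr15:101266596-101266845: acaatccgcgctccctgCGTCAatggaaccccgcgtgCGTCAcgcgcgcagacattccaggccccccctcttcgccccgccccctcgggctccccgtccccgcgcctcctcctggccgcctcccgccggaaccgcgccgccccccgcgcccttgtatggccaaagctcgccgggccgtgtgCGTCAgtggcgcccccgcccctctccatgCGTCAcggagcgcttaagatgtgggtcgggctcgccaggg
Nr4a3, chr4:48045055-48045304: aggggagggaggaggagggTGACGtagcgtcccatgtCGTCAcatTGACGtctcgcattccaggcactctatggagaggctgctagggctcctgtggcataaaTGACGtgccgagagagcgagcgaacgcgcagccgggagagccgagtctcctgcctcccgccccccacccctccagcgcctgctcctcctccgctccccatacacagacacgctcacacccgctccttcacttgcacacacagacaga
Egr2, chr10:67537619-67537868: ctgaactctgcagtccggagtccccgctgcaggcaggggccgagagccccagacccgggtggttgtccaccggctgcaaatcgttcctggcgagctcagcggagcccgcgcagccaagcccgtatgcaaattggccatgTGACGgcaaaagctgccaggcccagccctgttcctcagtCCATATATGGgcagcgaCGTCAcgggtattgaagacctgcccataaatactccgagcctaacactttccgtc

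Nr4a1 and Nr4a3 each hold 4 copies of TGACG in these windows, a number reached in 0.137% of the 32851 RefSeq windows of this length, while 17.8% hold at least 1. The Egr2 window holds 2 copies of TGACG and 1 CArG box, and none of these matches overlap. At least 1 CArG box lies in 1.47% of all windows. The Egr2 window was picked from the 5 annotated for this gene by its number of matches. That share, which is for windows not picked in this way, is therefore no measure of how unusual it is. A CArG box lies in 4 of the 5 annotated Egr2 windows. These matches are letters in a window and were not tested for binding. Windows were found for 5 of the 9 genes. Of those not shown, the Id2 window holds neither motif, and the Id3 window holds 1 TGACG and no CArG box.

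The median deposited signal was 23.5 to 38.4 over the 4 arrays, and the arrays were brought to a common median before comparison. This step used all probe sets, tested or not. After it the tested genes still had a median log2 change of 0.21 (hypomorph minus control), so changes are also given relative to that median. That median depended on the scaling: it was 0.04 with centring on the tested probe sets and 0.02 with quantile normalization. The targeted gene was lower in the hypomorphs on its brighter probe set: Atg16l1 read 108 and 70.8 there against 184 and 241 in the controls (log2 change -1.57, adjusted p 0.0142 in limma). Signals of the defining T lineage genes were high on all arrays. The brightest of them, Thy1, which encodes a surface antigen of thymocytes, read 8268, 6885, 5076 and 6581 (hypomorph replicates 1 and 2, then control replicates 1 and 2). The 9 T lineage genes tested had a median log2 change of 0.07, or -0.14 relative to the tested genes, with 3 above their median and 6 below. They ran from -0.07 for the coreceptor gene Cd8a to 0.37 for the coreceptor gene Cd4 (adjusted p 0.290 in limma). In an unsorted population, fewer cells of a type and less RNA per cell cannot be told apart.

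No probe set of the 9 genes differed between the groups at an adjusted p under 0.05 in limma (0 of 17 tested), where 0.0622% of all tested probe sets were called. Of these 17, 2 were higher with an unadjusted p under 0.05 (Egr2 and Cd69), or 11.8% against 14.9% of all tested probe sets, and 1 was lower (a probe set of Nfatc1), or 5.88% against 1.19%. Log2 changes above 0 were found in 12 of the 17, or 70.6% against 75.6% of all tested probe sets, and deposited signals that were higher in both hypomorphs in 10, or 58.8% against 65.9%. Every gene had at least 1 tested probe set. The 9 genes, each by its brightest probe set, had a median log2 change of 0.13, which was -0.08 relative to the tested genes, with 3 above and 6 below their median. The changes ran from -0.03 (Id2) to 0.45 (Egr2). In fold terms, the 95% confidence interval was 0.768 to 1.25 for Nr4a1 and 0.779 to 1.23 for Id2, and the widest was that of Nr4a3, 0.805 to 1.85. These intervals are not relative to the tested genes and leave out the uncertainty of the scaling between arrays. The log2 change of Nr4a1 was -0.28 with quantile normalization and 0.30 without centring. With 2 arrays per group, changes of up to 2-fold in a single probe set were mostly below what the test could call on simulated data.

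**Figure D1:**
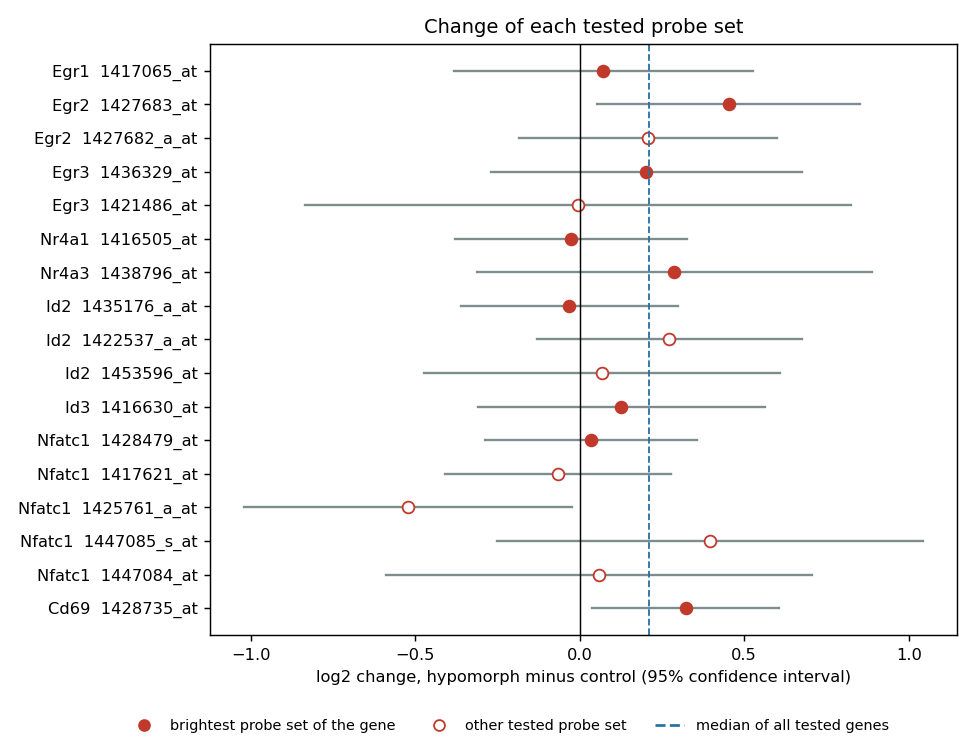
Log2 change (hypomorph minus control, x axis) of the 17 tested probe sets of the 9 genes with 95% confidence intervals from limma; filled points are the brightest probe set of each gene and the dashed line is the median change of all tested genes, 0.21. Most intervals span 0, the exceptions being those of 1 Egr2 probe set, Cd69 and 1 Nfatc1 probe set, whose adjusted p-values were 0.284, 0.284 and 0.299.

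Among the Egr genes, Egr2 stood highest. Egr2 encodes a zinc finger factor that thymocytes need for efficient positive selection and for the survival of selected cells. Its brighter probe set read 337 and 344 in the hypomorphs and 175 and 222 in the controls (deposited signals, as below). Both hypomorph arrays lay above both controls, also after centring, where the means of log2 signals were 8.26 ± 0.34 (SD, n = 2) and 7.81 ± 0.10 (SD, n = 2). The log2 change for this Egr2 probe set was 0.45 ± 0.18 (SE), a 1.37-fold higher signal (95% confidence interval 1.04 to 1.81), with an adjusted p of 0.284 in limma. Relative to the tested genes it was 0.24. A centred separation of this kind, with the hypomorphs higher, was found in 43.8% of all tested probe sets and in 3 of the 17 here. The second Egr2 probe set had signals of 290, 233, 145 and 221 (in the order given above) and a log2 change of 0.21 (adjusted p 0.555), which is the median of the tested genes, and its groups overlapped after centring. The value of the brighter probe set rested in part on hypomorph replicate 2, without which the log2 change was 0.21, and it was 0.24 with quantile normalization.

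Egr1, the family member with the broadest range of inducing signals, was bright on every array. It read 1620 and 1916 in the hypomorphs and 1124 and 1584 in the controls. After centring, the hypomorph arrays held both the lowest and the highest of the 4 values, 10.27 and 10.97, with the controls between them at 10.40 and 10.70. The log2 change of Egr1 was 0.07 ± 0.21 (SE), or 1.05-fold (95% confidence interval 0.768 to 1.44), with an adjusted p of 0.875 in limma. Its sign turned with quantile normalization (-0.15) and with centring on the tested probe sets (-0.10), and it was -0.28 without hypomorph replicate 2 and 0.42 without hypomorph replicate 1.

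Egr3, which acts with Egr1 and Egr2 and supports thymocyte growth after the pre-T cell receptor signal, was dimmer. Its brighter probe set had signals of 165, 181, 108 and 132, and its other probe set had 29.1, 40.7, 24.8 and 29.6. On both probe sets hypomorph replicate 2 was highest and hypomorph replicate 1 lowest after centring, so the groups overlapped. The log2 changes were 0.20 ± 0.21 and 0.00 ± 0.38 (SE), with adjusted p-values of 0.636 and 0.997 in limma.

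Neither Nr4a receptor gene passed the test, and on the tested probe sets the groups overlapped for both after centring. Nr4a1, which encodes NUR77, the receptor commonly used as a reporter of T cell receptor signal strength, read 654 and 592 in the hypomorphs and 421 and 604 in the controls. After centring the groups overlapped almost fully, at 8.97 and 9.28 against 8.99 and 9.31. The log2 change of Nr4a1 was -0.03 ± 0.16 (SE; adjusted p 0.942 in limma), -0.24 relative to the tested genes. On uncentred values it was 0.30.

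Nr4a3, which encodes NOR1 and overlaps with NUR77 in function, had the widest range of the 9 genes over the arrays (0.93 on the log2 scale). Its bright probe set read 130 and 182 in the hypomorphs and 98.2 and 101 in the controls. After centring hypomorph replicate 2 stood alone at 7.59, while the other 3 arrays lay between 6.66 and 6.92. The log2 change of Nr4a3 was 0.29 ± 0.27 (SE; adjusted p 0.594 in limma), and without hypomorph replicate 2 it was -0.18. The other Nr4a3 probe sets were too dim to be tested, with signals of 6.48 to 15.9 and of 1.17 to 4.76.

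**Figure D2:**
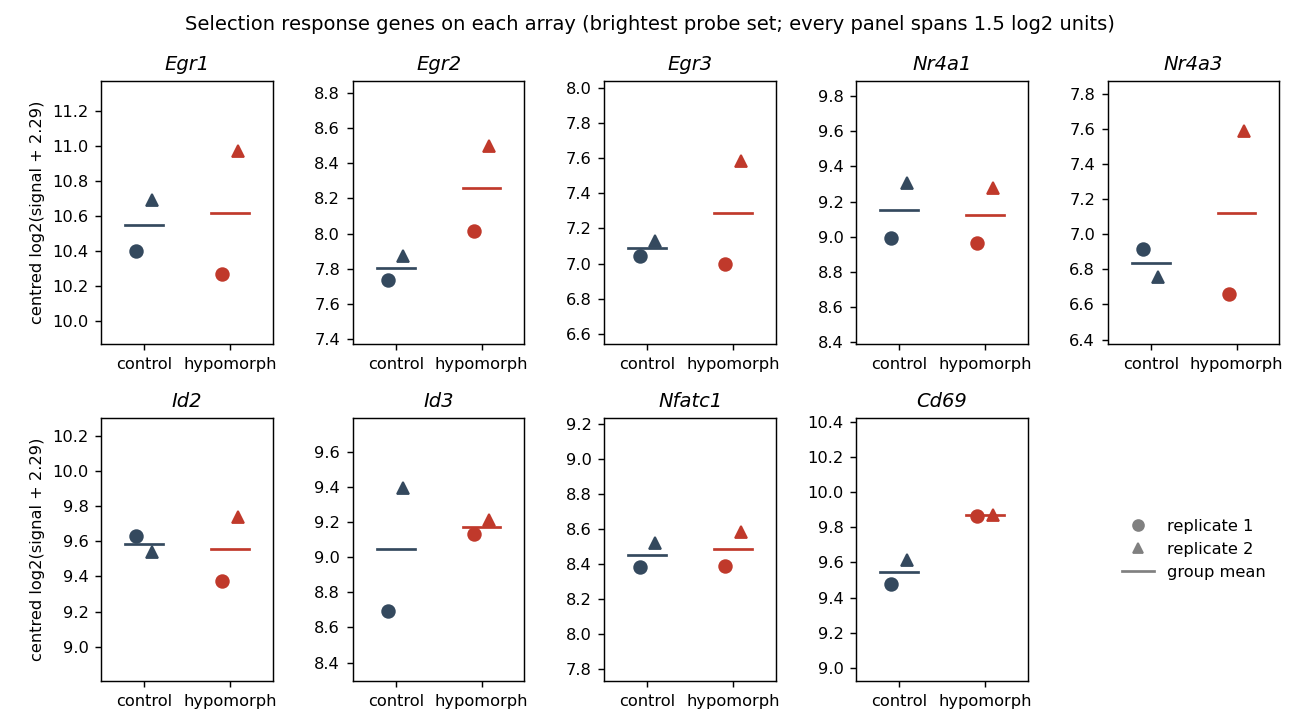
Centred log2(signal + 2.29) of the brightest probe set of each gene on the 4 arrays, by group (circles replicate 1, triangles replicate 2, lines group means; each panel spans the same number of log2 units on its own range). The hypomorph arrays are far apart for Egr1, Egr3 and Nr4a3 and nearly equal for Cd69 (9.87 on both), while the control arrays are far apart for Id3 (8.70 and 9.40).

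The Id genes encode proteins that bind E proteins and keep them from DNA. Id3, which is induced by the Egr factors downstream of ERK, read 734 and 565 in the hypomorphs and 343 and 642 in the controls. After centring the controls held both the lowest and the highest value, with both hypomorph arrays between them. The log2 change of Id3 was 0.13 ± 0.20 (SE; adjusted p 0.759 in limma), and leaving out a control array gave -0.22 (the first) or 0.48 (replicate 2).

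Id2, which is more prominent in innate-like and CD8 lineage cells, was measured by 3 tested probe sets. The brightest had signals of 868, 814, 658 and 711 and a log2 change of -0.03 ± 0.15 (SE; adjusted p 0.927 in limma). The second had 266, 233, 134 and 199 with a change of 0.27, and the dimmest 85.7, 58.0, 46.0 and 61.1 with a change of 0.07. The centred groups overlapped on all 3. Ratios of probe sets within an array do not depend on the scaling between arrays, and that of the second to the brightest Id2 probe set was -1.71 and -1.81 (log2) in the hypomorphs against -2.30 and -1.84 in the controls. It was higher in both hypomorphs, by less than the spread of the controls.

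Nfatc1 encodes the NFAT family member NFATc1, which calcineurin activates and which is itself induced from an inner promoter after receptor signals. It had 5 tested probe sets, and their changes differed in sign. The 95% confidence intervals of all 5 overlapped, and differences between the probe sets were not tested. The brightest, with signals of 439, 365, 276 and 350, had a log2 change of 0.03 ± 0.15 (SE; adjusted p 0.919 in limma), and the next brightest one of -0.07 (adjusted p 0.844). Another Nfatc1 probe set, 1425761_a_at, read 137 and 69.0 in the hypomorphs and 97.5 and 128 in the controls. These deposited signals overlapped between the groups, and after centring both hypomorph arrays lay below both controls, at 6.73 and 6.22 against 6.91 and 7.08. Its log2 change was -0.52 ± 0.23 (SE), or -0.73 relative to the tested genes, with an adjusted p of 0.299 in limma. Lower centred values without overlap were found in 7.04% of all tested probe sets. The 2 dimmest Nfatc1 probe sets had log2 changes of 0.40 (1447085_s_at, adjusted p 0.491) and 0.06 (1447084_at, adjusted p 0.932).

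For 1425761_a_at and 1447085_s_at the difference from the brightest Nfatc1 probe set was also seen without scaling between arrays, though in the same signals. The log2 ratio of 1425761_a_at to the brightest Nfatc1 probe set was -1.68 and -2.40 in the hypomorphs and -1.50 and -1.46 in the controls. That of 1447085_s_at to the same probe set was -2.61 and -3.18 in the hypomorphs and -3.20 and -3.40 in the controls. The first ratio was lower and the second higher in both hypomorphs, but in each case the gap between the hypomorph arrays was wider than the gap between the nearest arrays of different groups. Such ratios of 1417621_at and 1447084_at overlapped between the groups. So did those of the dimmer Egr2 and Egr3 probe sets and of the dimmest Id2 probe set to the brightest of their gene. Without hypomorph replicate 2 the log2 change of 1425761_a_at was -0.27.

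Cd69, the early activation antigen that binds the sphingosine phosphate receptor S1PR1 and removes it from the cell surface, had hypomorph values that were nearly equal after centring. It read 1222 and 893 in the hypomorphs and 592 and 747 in the controls. Both hypomorph arrays were at 9.87 after centring and lay above the controls at 9.48 and 9.61. The log2 change of Cd69 was 0.32 ± 0.13 (SE), or 1.25-fold (95% confidence interval 1.03 to 1.52), with an adjusted p of 0.284 in limma. Relative to the tested genes it was 0.11, and with quantile normalization the change was 0.08. Leaving out any single array kept it between 0.26 and 0.39.

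The gap between the hypomorph arrays was wider than the difference of the group means for 7 of the 9 genes, which held for 40.8% of the tested genes. A gap between single arrays varies more than a difference of group means. The tested genes also had a median change of 0.21 between the groups. These shares are therefore no measure of an unusual spread between animals. Hypomorph replicate 2 exceeded replicate 1 by 0.70 on the centred log2 scale for Egr1, 0.49 for Egr2, 0.58 for Egr3 and 0.93 for Nr4a3, where tested genes of like signal (mean within 0.5 on the log2 scale) had medians of 0.07 to 0.11. With quantile normalization these gaps were 0.64, 0.45, 0.55 and 0.88. The gaps kept their direction in the deposited signals but were smaller, at 0.24, 0.03, 0.13 and 0.48 on the log2 scale. Hypomorph replicate 1 had the highest median deposited signal of the 4 arrays, 38.4, against 27.4 on hypomorph replicate 2 and 23.5 and 27.4 in the controls. Its ratio of late to early transcript signal for the actin control was 1.23, against 1.41, 1.41 and 1.40 on those arrays. That ratio for Gapdh was 0.80 to 0.82 on all arrays. Despite the lower median, Egr1, Egr2, Egr3 and Nr4a3 had the higher deposited signal on hypomorph replicate 2, as did 8.54% of the tested genes (874 of 10235). The other 5 members, Nr4a1, Id2, Id3, Nfatc1 and Cd69, had the lower deposited signal there. Among the general immediate early genes described below, none of 13 tested was higher on hypomorph replicate 2 in the deposited signals. Among other receptor-induced genes of selection 5 of 19 were, namely Itm2a, Trat1, Ccr7, Zbtb7b and Irf4. Marker lists of other cells held this pattern too: 5 of 6 tested granulocyte genes were higher on hypomorph replicate 2, led by S100a8 and S100a9, as were 4 of 8 genes of mature single-positive thymocytes (Gimap4, Gimap3, Ccr7 and Itgb7). The same held for 2 of 3 tested genes of fibroblasts and endothelium and 2 of 9 of innate-like T and NK cells. None of the 9 T lineage genes was higher there. Nor was any tested marker of double-positive thymocytes, regulatory T cells, B cells, macrophages, dendritic cells or thymic epithelium. In lists this short, a count of none is little apart from the 8.54% of all tested genes. The part of these cells in the gaps was not tested. Whether the sex of the animals, the preparation of the cells or the array underlies these gaps was not tested.

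**Figure D3:**
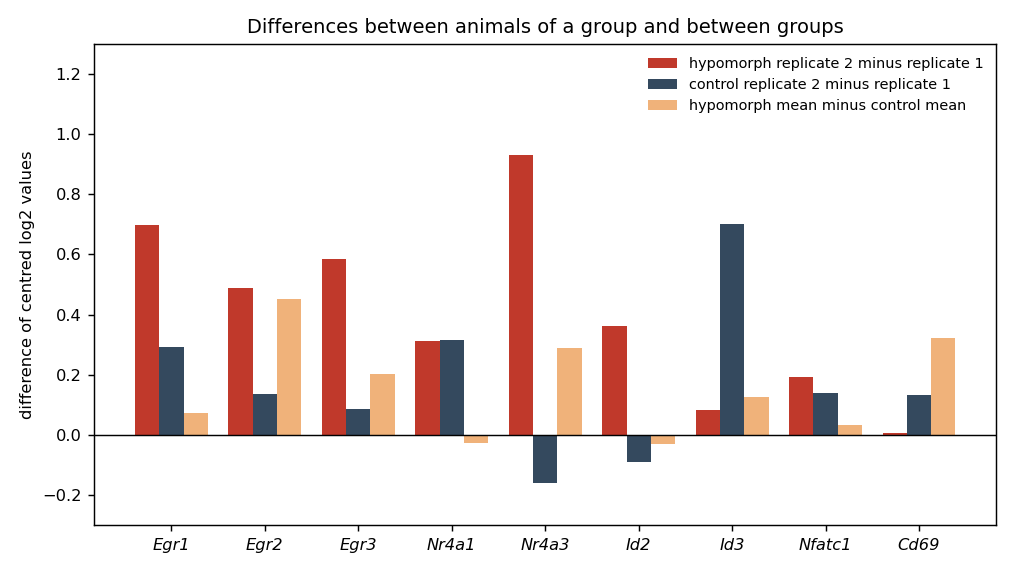
Difference of centred log2 values (bars, y axis) of replicate 2 minus replicate 1 in the hypomorphs and in the controls, and of the group means, for the brightest probe set of each of the 9 genes. The first bar is the tallest for Egr1, Egr2, Egr3, Nr4a3, Id2 and Nfatc1 (0.93 for Nr4a3), the control arrays differ most for Id3 (0.70), and for Cd69 the difference between groups (0.32) exceeds both.

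The genes around this response were taken from lists by role. No gene of these lists was called over all probe sets in limma, where 0.0391% of tested genes were, and 18.2% of tested genes were higher and 0.889% lower at an unadjusted p under 0.05. Some genes stand in more than 1 list.

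Other genes that receptor signals raise during selection had a median log2 change of 0.07, which was -0.14 relative to the tested genes, with 5 of 19 tested above the median and 14 below. At an unadjusted p under 0.05, 1 was higher and none lower. The smallest p-values were those of Tox, a nuclear factor needed for CD4 lineage development (log2 change 0.29), Cd27, a costimulatory receptor (0.29), Gata3, the CD4 lineage transcription factor (0.29), and Bcl2l11, which encodes the death protein BIM (0.22). Their adjusted p-values were 0.310, 0.321, 0.353 and 0.389.

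Regulators of Egr activity and of the ERK pathway had a median change of 0.15, with 5 of 15 tested above the median of the tested genes. Spred1, an inhibitor of RAS signalling to ERK, was at 0.51 (adjusted p 0.266 in limma) and was the only one at an unadjusted p under 0.05. Elk4, a serum response factor partner, and Map2k2, which encodes the ERK kinase MEK2, were each at 0.29 (adjusted p 0.314 and 0.335), and Dusp6, an ERK phosphatase gene induced by ERK itself, was at 0.29 (adjusted p 0.390).

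E proteins and further Id or partner genes had a median change of 0.10 over 7 tested genes, of which 2 lay above the median of the tested genes and 1 was higher at an unadjusted p under 0.05. Tcf3, which encodes the E proteins E12 and E47, was at 0.41 (adjusted p 0.265 in limma). Id1 was dim and at 0.38 (adjusted p 0.532). The progenitor genes Lmo2 and Hhex were also dim and at -0.62 and -0.60 (adjusted p 0.368 for each). Of 10 tested genes that E proteins control, 5 lay above the median and 5 below. Cxcr4, a chemokine receptor gene of double-positive cells, was at 0.44 (adjusted p 0.242), Cd4 at 0.37 (0.290) and the recombinase gene Rag2 at 0.28 (0.397). The chemokine receptor gene Cxcr5 was dim and at -0.55 (0.393).

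Genes of calcineurin and NFAT signalling had a median change of 0.15, with 5 of 16 tested above the median of the tested genes. Nfatc3, an NFAT family gene with a role in thymocyte development, was at 0.34 (adjusted p 0.284 in limma) and was the only one at an unadjusted p under 0.05. The calcium release channel gene Itpr3 and the phospholipase gene Plcg1 were each at 0.24 (adjusted p 0.415 and 0.419), and the calcium sensor gene Stim2 was at 0.20 (0.453).

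General immediate early genes, which respond to many stimuli including cell handling, had a median change of 0.10, with 3 of 13 tested above the median. Dusp1, a phosphatase gene, was at 0.46 (adjusted p 0.262 in limma) and Btg2, an antiproliferative gene, at -0.41 (0.281). Ier5 was at 0.31 (0.314) and the AP-1 gene Jun, which was dim, at 0.42 (0.494). Genes linked to thymic exit had a median of 0.13 over 8 tested genes, 3 of them above the median. S1pr1, the gene of the receptor that CD69 removes from the surface, was at 0.09 (adjusted p 0.846 in limma). Il7r, Ccr7 and S1pr4 were at 0.24, 0.32 and 0.27 and the integrin gene Itgb7 at -0.30, with adjusted p-values of 0.402 to 0.513, and none reached an unadjusted p under 0.05.

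**Figure D4:**
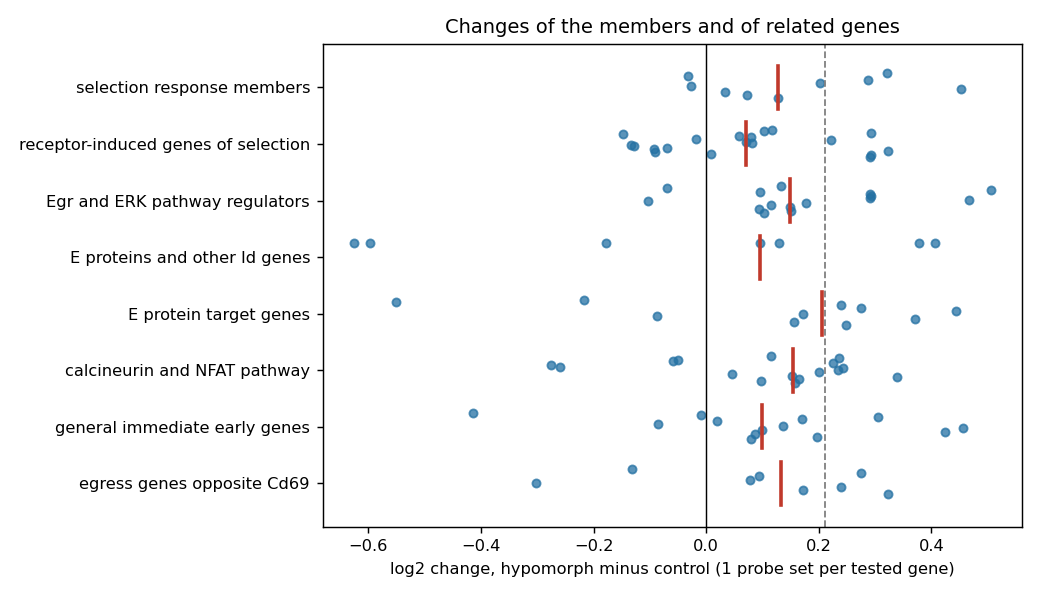
Log2 change (hypomorph minus control, x axis) of each tested gene, 1 probe set per gene, in the 9 members and in 7 lists of related genes (rows); red bars are list medians and the dashed line is the median of all tested genes. The list medians lie between 0.07 and 0.21, at or below the dashed line at 0.21.

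Markers of other thymic cells were measured because Egr, Nr4a, Id2 and Cd69 transcripts also occur in them. Of 6 tested B cell genes, 5 lay below the median of the tested genes. The summed centred signal of the 7 B cell genes on the array was 453 and 468 in the hypomorphs and 554 and 688 in the controls, and no B cell marker had a deposited signal of 0. The sum of 9 genes of dendritic cells, among them MHC class II genes and led by H2-Aa, Cd74 and H2-Eb1, was 3350 and 3423 against 4230 and 3818. Both sums were lower in the hypomorphs without overlap, but overlapped on the deposited signals. The dendritic cell sum was mostly that of MHC class II genes and Cd74. The other genes of this list were dim, and their centred values overlapped between the groups. Macrophage genes summed to 584 and 351 against 647 and 540. All 9 tested genes of innate-like T and NK cells, which are rich in Id2, lay below the median of the tested genes, with a median log2 change of -0.33, or -0.54 relative to them. Of these, 3 were lower and 1 higher in both hypomorphs after centring, where 7.04% and 43.8% of all tested probe sets were. The cytotoxic granule gene Nkg7 was at -0.52 (adjusted p 0.255 in limma). Their sum, 1958 and 2008 against 1995 and 1982, was mostly that of the granzyme gene Gzma, which was at 0.17 (adjusted p 0.484). Granulocyte genes varied most, at 2201 and 3683 against 663 and 5782, so that control replicate 1 was lowest, as it was after centring for 4 of the 9 genes (Egr2, Id3, Nfatc1 and Cd69) and for 48.8% of all tested probe sets. Markers of double-positive and of mature single-positive thymocytes had median log2 changes of 0.10 and 0.09, and those of regulatory T cells 0.15. The part of these cells in the values of the 9 genes was not tested.

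Patterns over the 4 arrays were compared by the root mean square difference of centred log2 values about each probe set's mean, which describes these arrays only. Over the 4 arrays the nearest to Nr4a3 among 18772 probe sets were those of Kdm6b, a histone demethylase gene, and Gpr83, a receptor gene of regulatory T cells, at differences of 0.03 and 0.04. The nearest to Egr1 were Igha, an immunoglobulin constant region gene, and Nudt14 (0.02 and 0.03). Foxp1, a transcription factor gene, and Mettl25 were nearest to Id3. Stau1 and 1700067K01Rik were nearest to Nr4a1, and Rab14 and Cyld to Cd69, each of these 6 at 0.01 on the log2 scale. The number of probe sets at such closeness differed between the genes: 4395 lay within 0.1 of Cd69, 777 of Nr4a1, 304 of Id3, 160 of Egr1 and 55 of Nr4a3.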

How the data were processed

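The authors deposited 1 intensity per probe set on a linear scale. The submitters' processing notes name GCOS, Affymetrix's software, whose version and scaling target are not given here. The 64 Affymetrix control probe sets were left out. Genes were named through the platform annotation, from probe sets with 1 symbol. A pseudocount of 2.29, the 10th percentile of all signals, was added before taking log2, with each array centred on the common median. The 22519 probe sets whose mean was at or above the median of all means were tested with limma 3.58.1 in R 4.3.3 (lmFit, eBayes with a variance trend, two-sided), with Benjamini-Hochberg adjustment over all of them and a threshold of 0.05. For lists, each gene was taken by its brightest probe set. Sex was no covariate, since no label gives it per array. With 2 arrays per group the smallest two-sided p of an exact permutation test is 0.333; the p-values printed use the variance model that limma shares across probe sets. The alternatives were no centring, centring on tested probe sets alone, quantile normalization, other pseudocounts and filters, other variance models, the replicate number as a block, the mean of a gene's probe sets, and leaving out each array.

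In data simulated for this comparison (20 simulations, 200 of 22519 probe sets changed) 3.88% of the 1.5-fold changes were recovered, 40.1% of those of 2-fold and 87.3% of those of 4-fold. The members and gene lists were chosen with earlier results of these data known, so no list was tested as a set. Genes outside the members were named by a rule: from each related list the called genes or up to 4 with the smallest p, from each marker list up to 3 of the brightest, any T lineage marker, and the nearest patterns; not all of these are named. The mature single-positive genes, S1pr1, Irf4, Itm2a, Trat1 and Zbtb7b were named after their values were seen. Gene names and promoter windows came from RefSeq, GRCm38.p6.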

Additional observations from a re-analysis of the deposited data

How the results depend on the processing

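No member probe set was called by limma in any of the 14 alternatives in which they were counted, with 0 to 5 at an unadjusted p under 0.05. The replicate numbers are not said to pair animals, and same-numbered arrays had deviations from their group means that correlated at 0.08. With the replicate block 9 probe sets were called in all, against 14, and no member. That number was 4 with quantile normalization and without a filter, 7 with centring on the tested probe sets, 84 without centring, 65 with robust eBayes, 0 without a variance trend (2492 at an unadjusted p under 0.05) and 8 to 340 on leaving out an array. The list genes called numbered 0 to 2 on leaving out an array; S100a8 and S100a9 passed without control replicate 2. The median of the 9 genes relative to the tested genes was -0.08, and -0.26 to 0.068 on leaving out an array, the lowest without hypomorph replicate 2 and the highest without hypomorph replicate 1. Relative to genes of like signal, an alternative chosen after seeing the data, it was -0.12. Of 268 recomputed list medians 249 stayed within 1 SD of the arrays; of the 19 others 9 rose, 10 fell and 4 turned sign.

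Directions were not settled for 11 of 17 member probe sets, and 33 of 232 recomputed changes turned sign. With quantile normalization these were Egr1 (-0.15), Id3 (-0.12), Nfatc1 1428479_at (-0.20) and Id2 1453596_at (-0.034). With centring on the tested probe sets they were Egr1 (-0.10), Id3 (-0.047), Id2 1453596_at (-0.11) and Nfatc1 1428479_at (-0.14) and 1447084_at (-0.12). Without centring they were Egr3 1421486_at (0.32), Nr4a1 (0.30), Id2 1435176_a_at (0.30) and Nfatc1 1417621_at (0.26), and with the pseudocount at the 25th percentile Nr4a1 (0.022) and Id2 1435176_a_at (0.019). On leaving out an array the log2 changes ran from -0.28 to 0.42 for Egr1, -0.46 to 0.45 and -0.091 to 0.49 for Egr3 1421486_at and 1436329_at, -0.19 to 0.13 for Nr4a1, -0.18 to 0.75 for Nr4a3, -0.21 to 0.15 and -0.028 to 0.16 for Id2 1435176_a_at and 1453596_at, -0.22 to 0.48 for Id3, and -0.16 to 0.032, -0.062 to 0.13 and -0.041 to 0.16 for Nfatc1 1417621_at, 1428479_at and 1447084_at. The cause was not tested. The number of arrays limits the precision of every value.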
